A study of Mus musculus with 9 samples.

Results

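The genes described here are 53 chromatin regulators of the mouse, the subunits and enzymes of 8 complexes or classes that move nucleosomes or write, read and erase marks on histones. They were chosen by name, with no expression value in the rule but with earlier results of these data known. All 53 were matched by Ensembl identifier among the 47643 genes of the count files. SWI/SNF gave 15 of them, Polycomb repressive complex 2 (PRC2) 7, PRC1 8 and COMPASS 7. The bromodomain (BET) readers with the acetyltransferases gave 6, the lysine demethylases 3, the deacetylases with the CHD remodelers 4, and other histone methyltransferases 3.

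SWI/SNF complexes use the energy of ATP to slide or evict nucleosomes, and they open enhancers and promoters. COMPASS complexes methylate histones at active promoters and enhancers, and the Polycomb complexes PRC1 and PRC2 keep developmental genes silent. Several SWI/SNF and COMPASS genes are known as tumor suppressors that are mutated in human pancreatic cancer, and Polycomb proteins act in the development and regeneration of the pancreas.

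RNA came from pancreatic ductal adenocarcinoma (PDAC) cells that had been sorted by FACS from tamoxifen-treated mice, with 6 libraries from GFP+Yap+ cells of the KPF genotype and 3 from Tm+Yap- cells of the KPYYF genotype. Mice of both groups carried Trp53 frt/+, Pdx-Flp and R26 FSF-CreER/Dual, among other alleles, and Flp driven by Pdx removes an allele of Trp53 and lights GFP in the pancreas. In KPYYF mice, Yap flox/flox was added, and the tamoxifen-activated Cre deletes Yap while it switches the reporter from GFP to tdTomato (Tm). The paper describes the sequenced cells as taken from relapsed nodules, and reports that Tm+Yap- nodules appeared after extended tamoxifen treatment. Genotype, loss of Yap, relapse after that loss and the reporter thus differ at once between the groups and cannot be told apart. The tamoxifen-activated Cre had switched the reporter only in the sorted KPYYF cells. The age of each animal and its time on tamoxifen were not given in the sources used here. Libraries are called by their mouse numbers: 4269, 4435, 4504h, 4504s, 4515 and 4601 in KPF, and 4449, 4891 and 4938 in KPYYF. The KPF libraries 4504h and 4504s share the number 4504 and may come from the same animal.

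Each library held 8116539 to 9635514 reads on genes, from 3′ end sequencing. The unit of level is CPM, a count made relative to its library size after TMM normalization, and a count of 0 allows up to 3 counts, or 0.291 to 0.436 CPM, for counting error only. Yap1, the gene targeted in KPYYF mice, lay between 41.7 and 150.5 CPM in KPF and at 0.711, 2.84 and 7.10 CPM in KPYYF libraries (adjusted p = 0.0159, edgeR quasi-likelihood test), but the floxed exons are not given in the sources used here, and 3′ reads outside the deleted part would not check the deletion. Some libraries stood apart in markers of other cells. The summed level of 8 acinar markers was 20031 CPM in KPF 4504s and 6010 CPM in KPYYF 4449 against 68.7 to 992 CPM in the other 7, and that of 10 immune markers was 8289 CPM in KPF 4601 against 365 to 1352 CPM in the other 8. Summed markers of ductal and PDAC epithelium were present in every library but lower in KPYYF (620 to 1874 CPM) than in KPF (3498 to 9136 CPM), and the summed level of 15 proliferation genes was higher (1156 to 1610 CPM against 443 to 996 CPM). In sorted bulk samples, fewer cells that use a gene and less of its RNA per cell cannot be told apart.

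All 53 regulators passed the filter of at least 100 counts over the 9 libraries, with 384 (Ring1) to 91621 (Brd2) counts. None had an adjusted p under 0.05 in either direction (edgeR quasi-likelihood test, Benjamini-Hochberg adjustment over the 14105 genes tested), where 1.10% of all genes tested did (0.305% higher and 0.794% lower). The smallest adjusted p of the 53 was 0.149, for Hdac2. The DESeq2 Wald test also called 0 of the 53, although it called 8.49% of all genes. At an unadjusted p under 0.05, 7 were higher in KPYYF libraries (13.2%, against 6.10% of all genes tested) and 0 were lower (10.0% of all genes tested). The rule of the study's methods, an unadjusted p under 0.05 with a change of more than 2-fold, held for 2 genes in the higher direction, Kat2a and Suv39h1 (4.20% of all genes tested), and for 0 in the lower direction (9.20%). With 4504h and 4504s summed into 1 library, the number higher at an unadjusted p under 0.05 was 5 in place of 7. In 7 genes every KPYYF library lay above every KPF library (13.2%, against 3.92% of all genes tested), and in 0 genes every KPYYF library lay below every KPF library (5.18%). The other 46 overlapped between the groups. Without KPYYF library 4449, these counts were 11 (20.8%, against 8.69% of all genes tested) and 1 (1.89%, against 10.3%). Without the 3 libraries with high acinar or immune markers, KPF 4504s, KPF 4601 and KPYYF 4449, they were 13 (24.5%, against 12.8%) and 4 (7.55%, against 13.5%), with 4 KPF and 2 KPYYF libraries left. The number with an unadjusted p under 0.05 in the higher direction was 3 without KPYYF library 4938. The share of all genes at that unadjusted p was not computed for the fits with libraries summed or left out. At an adjusted p under 0.05, 0.787% of all genes were called with 4504h and 4504s summed and 0.17% without 4938.

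The differences were small beside those of other genes. Of the 53, 4 had a log2 fold change beyond 2-fold (7.55%), against 32.9% of all genes tested, and the median size of the log2 fold change, sign dropped, was 0.33 against 0.61. With its sign kept, the median log2 fold change was 0.02 in the 53 and -0.07 in all genes, with 29 regulators above 0 (54.7%, against 46.7% of all genes) and 24 below (53.3% of all genes). The regulators were also sequenced more deeply than most genes, with a median of 61.6 CPM against 19.5, and their libraries were less spread within a group, with a median SD of log2 CPM of 0.47 in KPF and 0.39 in KPYYF against 0.78 and 0.78 in all genes. Precision still limits what can be said of each gene. The 95% interval of the log2 fold change lay wholly within a 2-fold change for 20 of the 53 (37.7%, against 12.1% of all genes), and for the other 33 it reached past 2-fold.

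**Figure D1:**
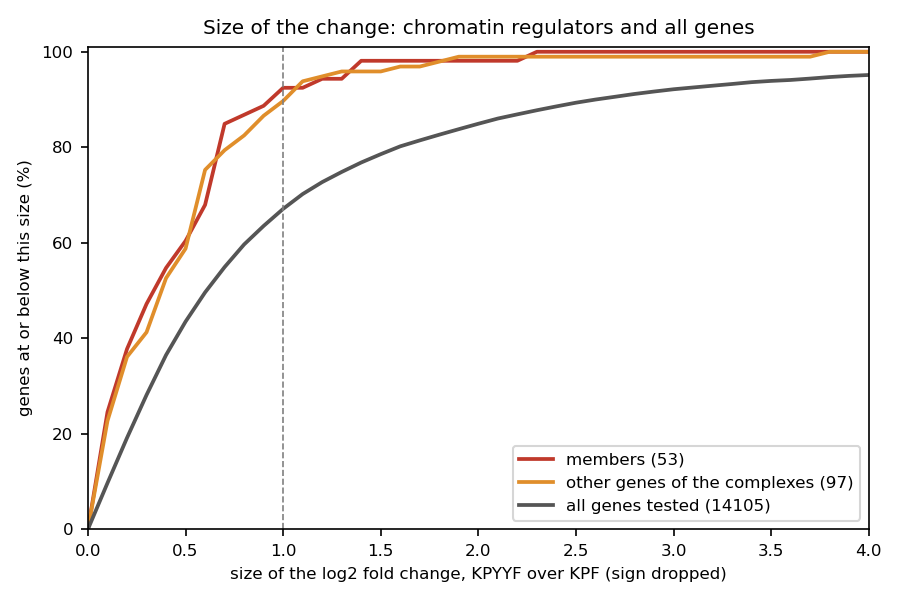
Share of genes (y axis, %) whose log2 fold change between KPYYF and KPF libraries, sign dropped, is at or below the size on the x axis, for the 53 regulators, 97 other tested genes of the same complexes and all 14105 genes tested. The dashed line marks 2-fold, which 7.55% of the regulators, 10.3% of the other complex genes and 32.9% of all genes exceeded.

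**Figure D2:**
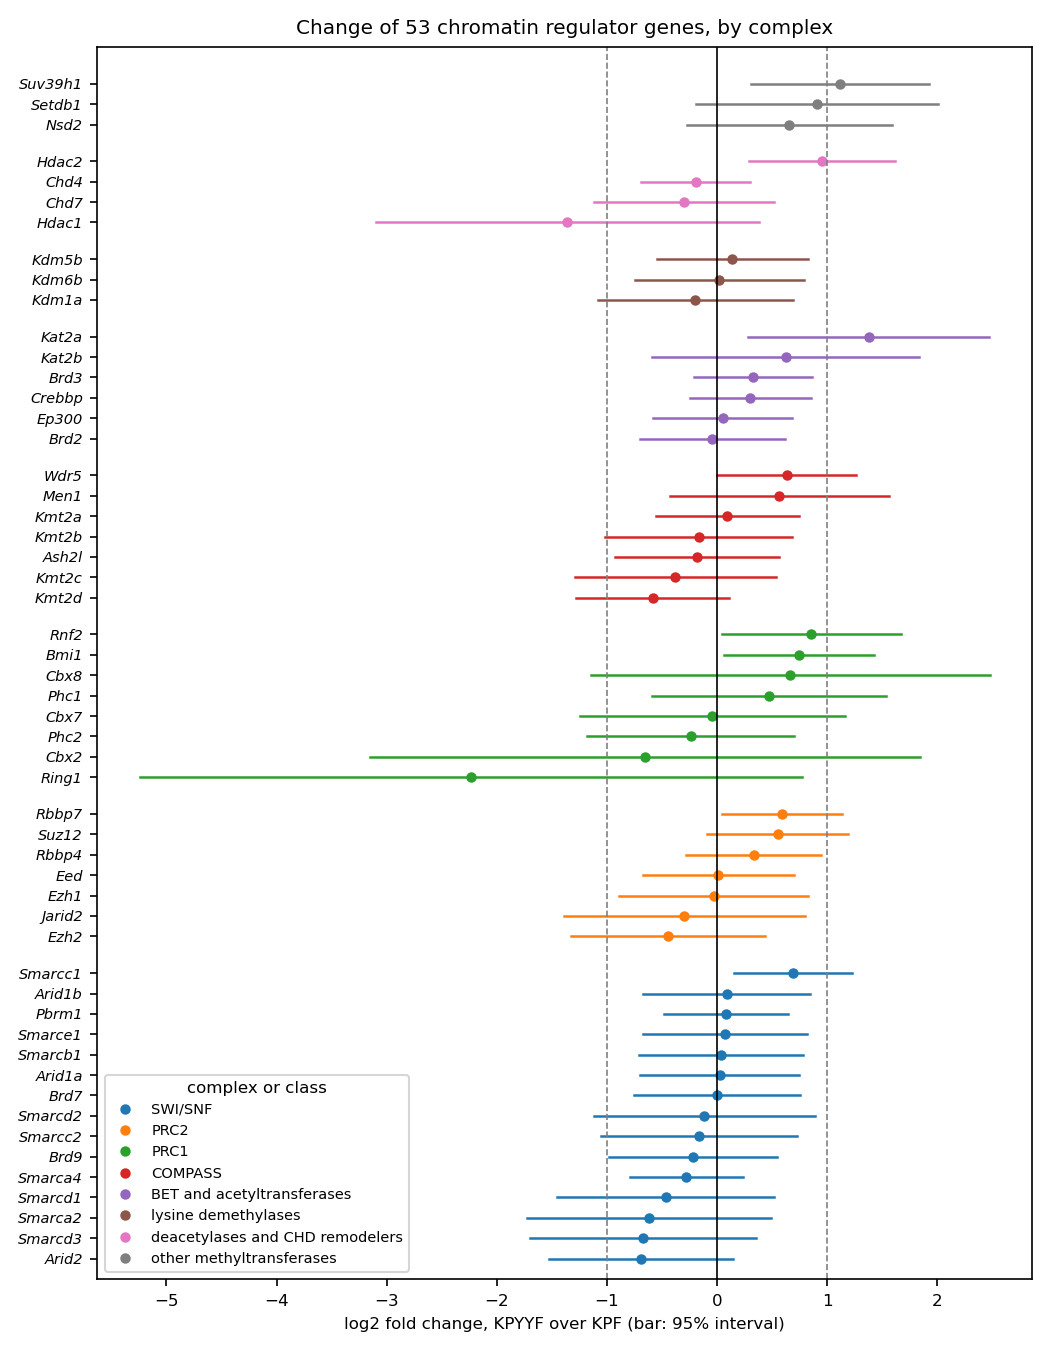
Log2 fold change of each of the 53 regulators, KPYYF over KPF (points), with its 95% interval from edgeR (bars), by complex. Dashed lines mark a 2-fold change in either direction. The widest intervals are those of Ring1, Cbx2, Cbx8 and Hdac1, and 7 of the intervals exclude 0, each on the side of higher levels in KPYYF.

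The 15 SWI/SNF regulators had mostly small log2 fold changes, but intervals such as those of Arid2, Smarca2 and Smarcd3 reached past 2-fold. The median size of the log2 fold change was 0.16, against 0.33, 0.38 and 0.66 in PRC2, COMPASS and PRC1. In the other 4 classes, in the order listed above, it was 0.32, 0.14, 0.63 and 0.91. PRC1 was also less deeply sequenced and more spread, with a median of 29.1 CPM and a median KPF SD of log2 CPM of 0.71. The values in SWI/SNF were 64.4 CPM and 0.42. The median log2 fold change of the 15 was -0.11, none had a log2 fold change beyond 2-fold, and 7 lay above 0 and 8 below. The catalytic ATPase Smarca4 (Brg1) was at 230 to 319 CPM in KPF libraries, with a median of 266, and at 242, 177 and 238 CPM in KPYYF, a log2 fold change of -0.28 with a 95% interval of -0.79 to 0.24. The other ATPase, Smarca2 (Brm), ran from 40.1 to 180.4 CPM in KPF, with a median of 68.1, and was at 56.8, 91.4 and 38.1 CPM in KPYYF (log2 fold change -0.62, interval -1.73 to 0.49). Its 2 highest KPF libraries were 4504s (166 CPM) and 4601 (180.4 CPM), those with the high acinar and immune markers, and the subunit Smarcd2 was also highest there, with 124 and 183 CPM against 45.3 to 69.2 CPM in the other KPF libraries. The part of other cells in these values was not tested.

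Among the 15, the subunits that define each SWI/SNF assembly showed no common shift. Arid1a and Arid1b, the alternative DNA-binding subunits of the canonical BAF complex, had log2 fold changes of 0.03 and 0.09 with intervals of -0.70 to 0.75 and -0.67 to 0.85. Of the subunits of the PBAF complex, Pbrm1 and Brd7 had 0.08 and 0.00, and Arid2 had the lowest value of the 15, -0.69 (standard error 0.39, adjusted p = 0.416). Arid2 was at 33.6 to 80.0 CPM in KPF, with a median of 54.5, and at 29.6, 49.2 and 25.1 CPM in KPYYF, so that 1 KPYYF library lay inside the KPF range. Brd9, the bromodomain subunit of the non-canonical complex, had a log2 fold change of -0.21. The core subunits Smarcb1 and Smarce1 had 0.04 and 0.07.

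Smarcc1 (BAF155), a scaffold on which SWI/SNF complexes are assembled, was the exception among the 15. In KPF libraries it ran from 134 to 246 CPM, with a median of 190.1, and in KPYYF libraries it was at 327, 291 and 286 CPM. Every KPYYF library was above every KPF library. The log2 fold change was 0.69 (standard error 0.25, interval 0.16 to 1.23, unadjusted p = 0.0151, adjusted p = 0.182 in edgeR). Smarcc1 (ENSMUSG00000032481) lies on chromosome 9 of GRCm38, and its unadjusted p stayed under 0.05 whichever of the 9 libraries was left out. Its paralog Smarcc2 was at 21.9 to 75.0 CPM in KPF and at 44.1, 31.4 and 47.3 CPM in KPYYF (log2 fold change -0.16).

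**Figure D3:**
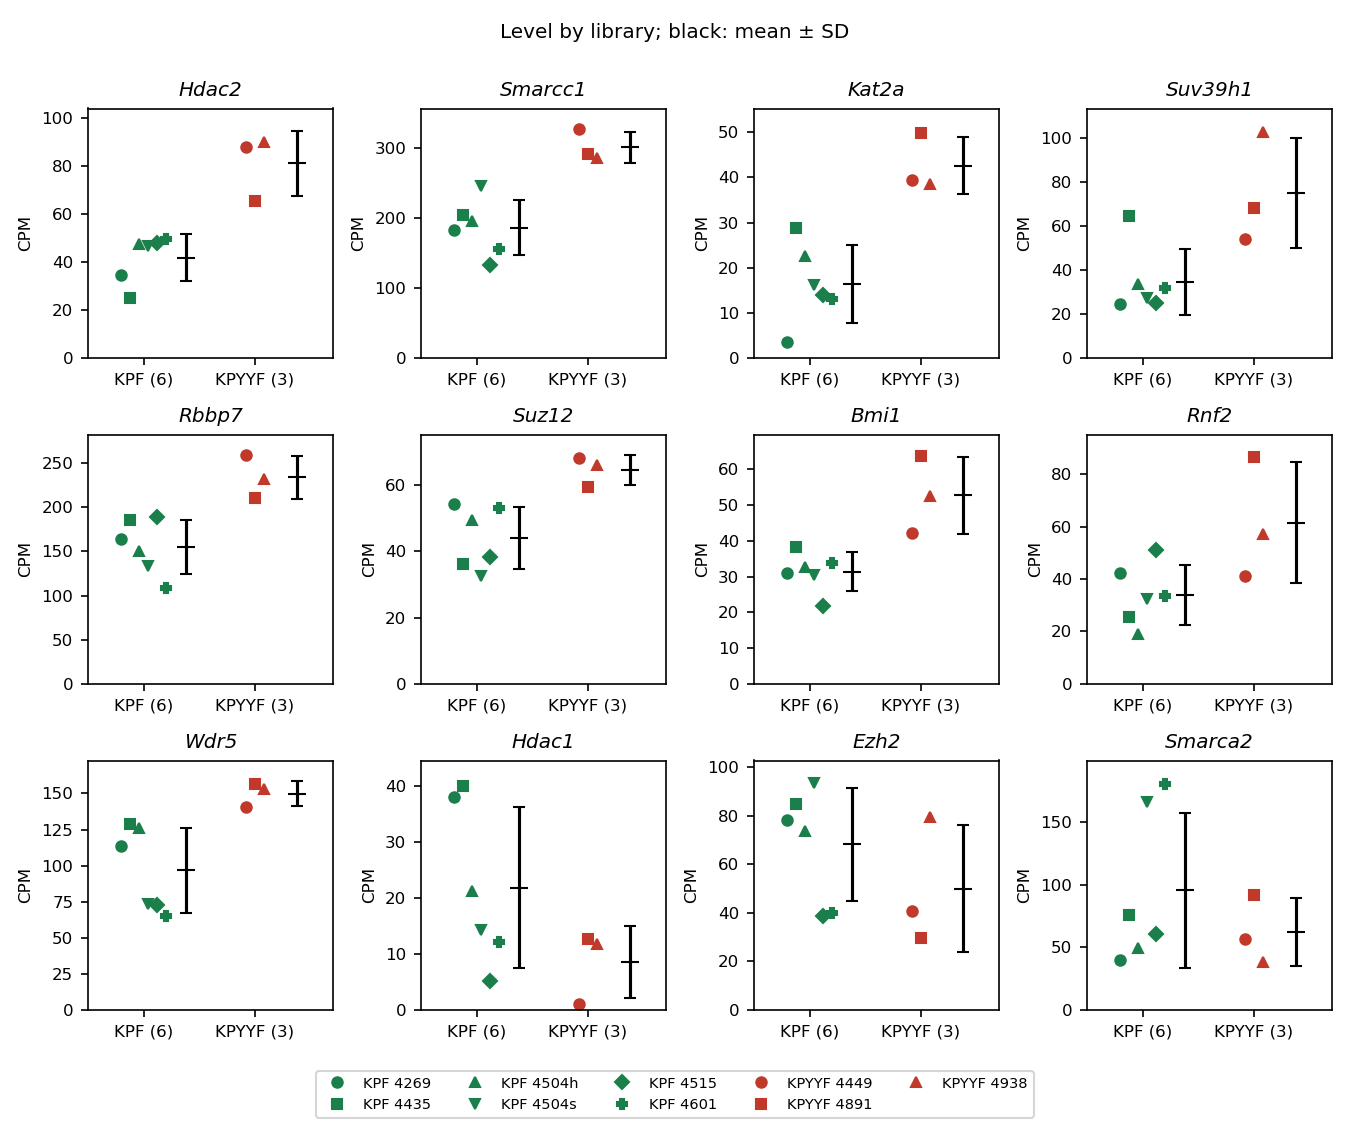
CPM of 12 regulators in each library (y axes, from 0), with KPF libraries in green, KPYYF libraries in red and group mean ± SD in black (n = 6 and 3). Hdac2, Smarcc1, Kat2a, Rbbp7, Suz12, Bmi1 and Wdr5 are the 7 without overlap, while Suv39h1 overlaps by KPF library 4435 and Rnf2 by KPF libraries 4269 and 4515.

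PRC2 holds Ezh2 or Ezh1 as the enzyme that writes the repressive histone mark of Polycomb, with Suz12, Eed, Rbbp4 and Rbbp7 as partners. The median log2 fold change of the 7 was 0.01. The enzyme and its partners did not point the same way. Ezh2 was at 38.7 to 93.5 CPM in KPF, with a median of 76.0, and at 40.9, 29.8 and 79.5 CPM in KPYYF, a log2 fold change of -0.45 (interval -1.33 to 0.44, adjusted p = 0.655), the lowest of the complex. It was -0.95 without KPYYF library 4938 and -0.18 without 4891. Its levels were uneven within both groups, with 4 KPF libraries at 73.7 CPM or more and the other 2 at 38.7 and 40.0 CPM. Ezh1 had a log2 fold change of -0.03 and Eed 0.01.

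Suz12 and Rbbp7 were higher in every KPYYF library than in any KPF library. The 250 bases before the start of Suz12, printed because they hold a motif described further on, are from RefSeq on GRCm38.p6 and lie at chr11:79992856-79993105 on the plus strand, with an E2F motif in capitals.
Suz12: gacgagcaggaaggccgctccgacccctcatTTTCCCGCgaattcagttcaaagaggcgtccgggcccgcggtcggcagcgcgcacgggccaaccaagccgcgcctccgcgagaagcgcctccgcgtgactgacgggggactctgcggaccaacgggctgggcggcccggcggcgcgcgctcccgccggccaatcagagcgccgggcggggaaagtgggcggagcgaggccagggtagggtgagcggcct
Suz12 ran from 32.6 to 54.2 CPM in KPF, with a median of 43.9, and was at 68.2, 59.4 and 65.9 CPM in KPYYF (log2 fold change 0.55, standard error 0.30, unadjusted p = 0.0843, adjusted p = 0.388 in edgeR). Rbbp7, a histone chaperone shared by PRC2 and the NuRD deacetylase complex, ran from 109 to 189 CPM, with a median of 157, in KPF and was at 259, 210.4 and 232 CPM in KPYYF (0.59, standard error 0.25, unadjusted p = 0.0344, adjusted p = 0.260). Its paralog Rbbp4 overlapped, with 201 to 282 CPM in KPF and 165, 407 and 290.2 CPM in KPYYF (0.33). Jarid2, which guides PRC2 to its targets, had the widest spread among KPYYF libraries in the complex, with 19.3 CPM in 4449, 155 in 4891 and 75.5 in 4938, against 65.6 to 168 CPM in KPF. Library 4449, the one with high acinar markers, was the lowest of the 3 KPYYF libraries in 22 of the 53 genes and the highest in 17.

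PRC1 ran from -2.23 to 0.86 with a median log2 fold change of 0.22. Its catalytic core is the ubiquitin ligase Rnf2 (Ring1B) or its paralog Ring1 (Ring1A) with a partner such as Bmi1. The RefSeq promoter of Bmi1 (GRCm38.p6, chr2:18676768-18677017, plus strand) is the promoter of a gene without overlap that holds a TEAD motif, the first capitals, and an E-box, the last capitals.
Bmi1: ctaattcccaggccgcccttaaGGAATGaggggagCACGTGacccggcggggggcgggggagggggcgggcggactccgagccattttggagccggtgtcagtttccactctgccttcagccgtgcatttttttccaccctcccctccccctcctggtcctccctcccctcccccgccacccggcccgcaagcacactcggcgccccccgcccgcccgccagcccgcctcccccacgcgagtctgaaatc
Bmi1, known for the self-renewal of stem cells and for its part in pancreatic cancer, ran from 21.9 to 38.2 CPM in KPF, with a median of 31.9, and was at 42.2, 63.7 and 52.6 CPM in KPYYF, without overlap. Its log2 fold change was 0.75 (standard error 0.32, interval 0.07 to 1.43, unadjusted p = 0.0334, adjusted p = 0.257 in edgeR). Rnf2 pointed the same way, with 19.1 to 51.2 CPM in KPF (median 32.9) and 41.0, 86.4 and 57.3 CPM in KPYYF (0.86, standard error 0.38, unadjusted p = 0.0395, adjusted p = 0.275), but 2 KPF libraries reached into the KPYYF range. Without KPYYF library 4891, its log2 fold change was 0.53.

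Ring1 had few reads. It was at 0.883 to 13.6 CPM in KPF, with a median of 4.35, and at 0, 1.64 and 2.30 CPM in KPYYF, so the groups overlapped and the log2 fold change of -2.23 had an interval of -5.24 to 0.77 (adjusted p = 0.471). It was the only 1 of the 53 with no count in a library, KPYYF 4449. The chromobox readers of the Polycomb mark were also spread widely. Cbx2 and Cbx8 ran from 0.776 to 9.38 CPM and from 1.22 to 14.1 CPM in KPF, and their log2 fold changes of -0.65 and 0.67 had intervals that reached from -3.15 to 1.85 and from -1.14 to 2.48. Cbx7 had -0.04, and the polyhomeotic subunits Phc1 and Phc2 had 0.47 and -0.24. Ring1, Cbx2 and Cbx8 were 3 of the 5 regulators whose SD of log2 CPM among KPF libraries exceeded 1, with Hdac1 and Kat2a.

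**Figure D4:**
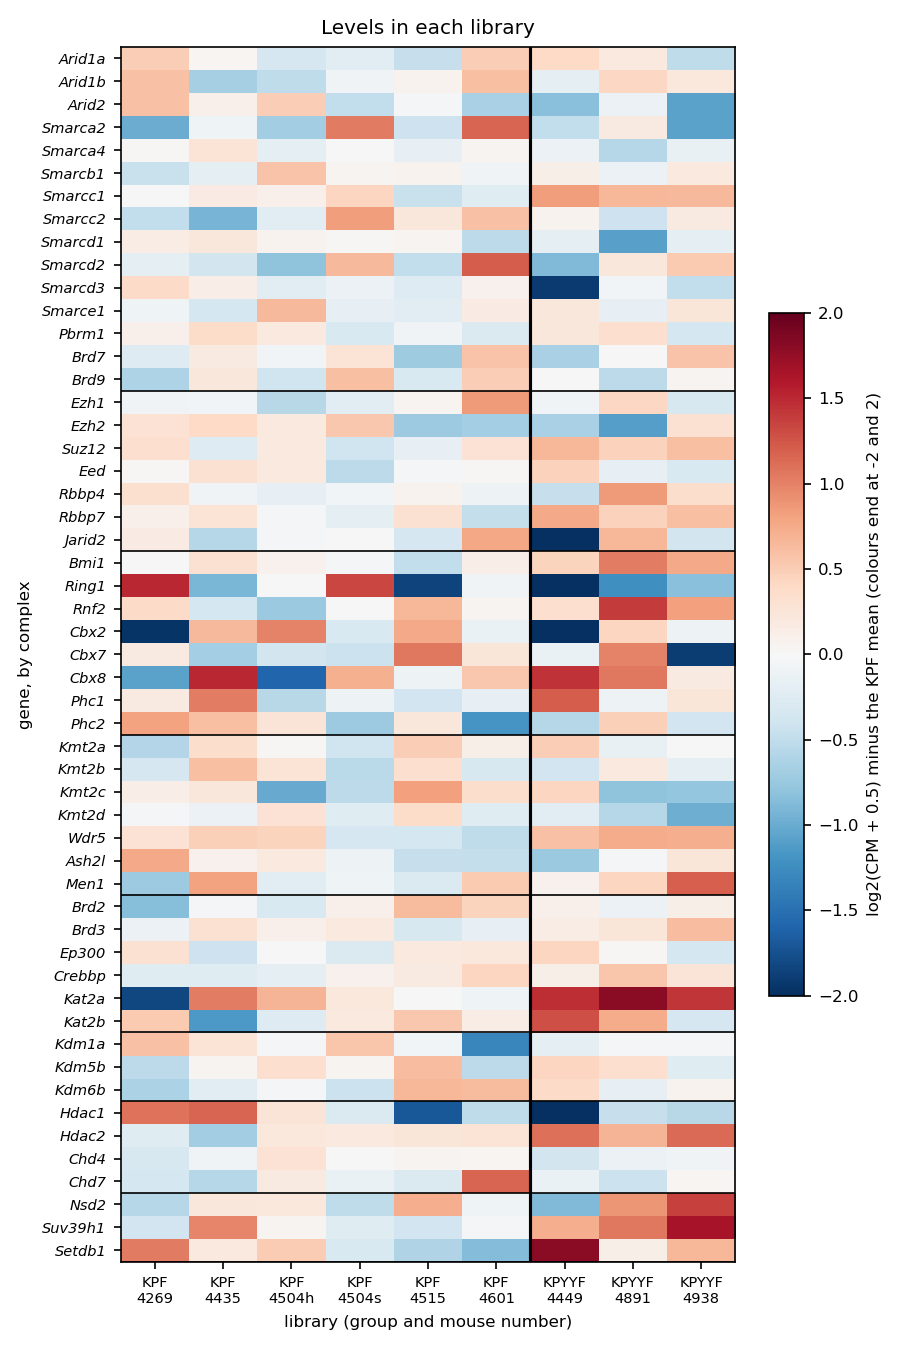
Level of each regulator in each library, as log2(CPM + 0.5) minus the mean of the KPF libraries (red above, blue below, colours ending at -2 and 2), with lines between complexes and between KPF and KPYYF libraries. Kat2a, Smarcc1, Hdac2, Suz12, Rbbp7, Bmi1 and Wdr5 are red in all 3 KPYYF libraries, while Ring1, Cbx2, Jarid2, Smarcd3 and Hdac1 are deep blue in library 4449.

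COMPASS had a median log2 fold change of -0.16. Its catalytic subunits Kmt2a, Kmt2b, Kmt2c and Kmt2d had 0.09, -0.16, -0.38 and -0.58. Kmt2d, the enhancer methyltransferase with the lowest value of the complex, was at 45.2 to 69.3 CPM in KPF, with a median of 50.5, and at 45.7, 36.1 and 27.0 CPM in KPYYF (standard error 0.32, interval -1.28 to 0.11, adjusted p = 0.404). Only library 4449, at 45.7 CPM, lay inside the KPF range. Wdr5, the subunit that all COMPASS forms share and that holds the complex together, was higher in each KPYYF library. It ran from 65.1 to 129 CPM in KPF, with a median of 93.6, and was at 140.3, 156 and 153 CPM in KPYYF (0.63, standard error 0.29, unadjusted p = 0.0502, adjusted p = 0.310 in edgeR). Ash2l, another shared subunit, had -0.18 and overlapped, with 65.9 to 157 CPM in KPF and 54.8, 91.2 and 109 CPM in KPYYF. Men1, the menin adaptor, had 0.57 (interval -0.43 to 1.57).

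Among the BET readers and acetyltransferases, the readers were close to 0 and Kat2a was not. Brd2, a BET protein that binds acetylated histones, was at 605 to 1707 CPM in KPF, with a median of 1127, and at 1175, 1011 and 1188 CPM in KPYYF, a log2 fold change of -0.04 (interval -0.70 to 0.62). Its KPYYF libraries all lay within the KPF range. Brd3 had 0.33, and the paralogous coactivators Ep300 and Crebbp had 0.05 and 0.30, each with an interval inside 2-fold. Kat2a (Gcn5), an acetyltransferase of the SAGA and ATAC coactivator complexes, had the highest log2 fold change of the 53. It was at 3.59 to 28.7 CPM in KPF, with a median of 15.1, and at 39.4, 49.8 and 38.5 CPM in KPYYF, without overlap.

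The promoter of Kat2a, shown as that of the largest fold, lies at chr11:100712468-100712717 of GRCm38.p6 (RefSeq) and is printed along the minus strand, the strand of the gene. It held no match to the motifs searched.
Kat2a: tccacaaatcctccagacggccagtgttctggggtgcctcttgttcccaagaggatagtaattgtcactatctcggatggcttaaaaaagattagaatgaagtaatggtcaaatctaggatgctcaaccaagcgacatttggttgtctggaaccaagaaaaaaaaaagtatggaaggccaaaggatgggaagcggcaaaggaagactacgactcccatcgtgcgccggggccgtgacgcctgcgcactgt
The log2 fold change of Kat2a was 1.38 (standard error 0.51, interval 0.28 to 2.48, unadjusted p = 0.0174, adjusted p = 0.195 in edgeR), or 2.60-fold. It held an unadjusted p under 0.05 in 8 of the 9 fits that left out 1 library, with log2 fold changes from 1.17, without KPF 4269, the library at 3.59 CPM, to 1.62. Without the 3 libraries with high acinar or immune markers (4504s, 4601 and 4449), the log2 fold change of Kat2a was 1.40 with an unadjusted p of 0.0632. Its paralog Kat2b was at 4.50 to 15.7 CPM in KPF and 26.5, 18.0 and 8.31 CPM in KPYYF (0.62, interval -0.59 to 1.84).

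The 3 lysine demethylases were close to 0. Kdm1a (LSD1), Kdm6b, which removes the Polycomb mark, and Kdm5b, which removes the mark of active promoters, had log2 fold changes of -0.20, 0.02 and 0.14, with a smallest adjusted p of 0.874. Kdm1a was at 14.4 to 54.9 CPM in KPF, with a median of 39.5, and at 31.6, 35.8 and 35.9 CPM in KPYYF. Kdm5b ran from 64.2 to 143 CPM in KPF, with a median of 96.0, and was at 125, 117 and 78.3 CPM in KPYYF. All 3 overlapped between groups.

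The class I deacetylases Hdac1 and Hdac2, which take the same place in the NuRD, Sin3 and CoREST complexes, had log2 fold changes of opposite sign. Hdac2 (ENSMUSG00000019777, chromosome 10 of GRCm38) was at 34.5, 25.0, 47.5, 46.8, 48.1 and 49.6 CPM in KPF libraries 4269, 4435, 4504h, 4504s, 4515 and 4601, and at 87.9, 65.6 and 90.2 CPM in KPYYF. The highest KPF library, at 49.6 CPM, was below the lowest KPYYF library. The promoter of Hdac2, shown as that of the smallest p, lies at chr10:36974294-36974543 of GRCm38.p6 (RefSeq, plus strand) and held no match either.
Hdac2: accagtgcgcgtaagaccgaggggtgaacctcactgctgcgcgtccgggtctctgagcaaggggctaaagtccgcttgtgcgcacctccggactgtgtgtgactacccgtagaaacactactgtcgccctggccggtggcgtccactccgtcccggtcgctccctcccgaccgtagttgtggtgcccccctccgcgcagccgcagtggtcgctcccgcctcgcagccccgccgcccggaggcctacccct
The log2 fold change of Hdac2 was 0.95, or 1.94-fold (standard error 0.31, interval 0.29 to 1.62, unadjusted p = 0.00849, adjusted p = 0.149 in edgeR), and it stayed between 0.84 and 1.09 with any 1 library left out.

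Hdac1 ran from 5.08 to 40.1 CPM in KPF, with a median of 17.8, and was at 1.07, 12.6 and 11.8 CPM in KPYYF. The groups overlapped, and the log2 fold change of -1.36 had an interval of -3.10 to 0.38 (adjusted p = 0.446). Without KPYYF library 4449, at 1.07 CPM, it was -0.84. The remodelers Chd4, the ATPase of NuRD, and Chd7 had -0.19 and -0.30, and Chd4 was at 467 to 717 CPM in KPF and 451, 541 and 556 CPM in KPYYF.

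The 3 other histone methyltransferases all had positive log2 fold changes, with a median of 0.91. Suv39h1, which writes the mark of constitutive heterochromatin, was at 24.6, 64.3, 33.6, 27.4, 24.8 and 31.5 CPM in KPF libraries 4269, 4435, 4504h, 4504s, 4515 and 4601, and at 53.8, 68.0 and 103 CPM in KPYYF. KPF library 4435 alone reached into the KPYYF range. Its log2 fold change was 1.12, or 2.18-fold (standard error 0.37, interval 0.31 to 1.93, unadjusted p = 0.0103, adjusted p = 0.161 in edgeR), and without KPYYF library 4938 it was 0.82. Setdb1, which silences retroelements, had 0.91 (interval -0.19 to 2.00), with 9.89 to 38.4 CPM in KPF and 65.8, 20.1 and 29.6 CPM in KPYYF.

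Nsd2, which marks transcribed chromatin, ran from 42.8 to 106 CPM in KPF, with a median of 67.4, and was at 34.3, 118 and 166 CPM in KPYYF, which put the KPYYF libraries on either side of the KPF range (0.66, interval -0.28 to 1.59, adjusted p = 0.499). Without KPYYF library 4938 the log2 fold change of Nsd2 was 0.18, and without 4449 it was 1.08 (unadjusted p = 0.0124, adjusted p = 0.164 in edgeR). Suv39h1 and Rbbp7 are the 2 regulators on the X chromosome. All 3 KPYYF libraries and KPF libraries 4435, 4504h and 4504s held over 1000 reads of Xist, the RNA of the inactive X, and the other 3 KPF libraries 71 to 159. Among the libraries with over 1000, the log2 fold changes were 0.87 for Suv39h1 (unadjusted p = 0.0724) and 0.60 for Rbbp7 (unadjusted p = 0.0628, edgeR).

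The summed level of the proliferation markers lay above the KPF range in all 3 KPYYF libraries, as did the 7 regulators without overlap. Of the 15 proliferation genes, 7 had an unadjusted p under 0.05 in edgeR and were higher in KPYYF (46.7%, against 6.10% of all genes tested). At that p 0 were lower (10.0% of all genes tested), and 0 passed the adjusted threshold (1.10% of all genes tested). In all, 14 of the 15 had a log2 fold change above 0 (93.3%, against 46.7% of all genes tested), with a median of 0.95. In 7 of the 15 every KPYYF library lay above every KPF library, against 3.92% of all genes tested, and the groups overlapped in the other 8. These include Mcm2, a helicase subunit of DNA replication and the only 1 below 0, at -0.71. Whether cycling cells account for any of the 7 regulators without overlap was not tested.

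Paralogs that share a seat in a complex were also compared as a log2 ratio within each library, which the scaling between libraries hardly touches. The ratio of levels between the members of a pair is not read here, only its shift from KPF to KPYYF. Across 18 pairs, 0 had ratios that did not overlap between the groups. The ratio Rnf2/Ring1 shifted most, by 3.04 on the log2 scale, from a KPF range of 1.41 to 5.54 to a KPYYF range of 4.51 to 7.54, and Hdac1/Hdac2 shifted by -2.58, from -3.19 to 0.67 in KPF to -6.10 to -2.36 in KPYYF. Both rest on a gene with few reads in library 4449, Ring1 and Hdac1, and Ring1 was at 0, 1.64 and 2.30 CPM in the KPYYF libraries. With any 1 library left out the 2 shifts ranged from 2.20 to 3.72 and from -3.30 to -1.43. With a prior count of 0.5 in place of 2 they were 3.71 and -2.65, so the size for Rnf2/Ring1 depends on the prior count. Cbx8/Cbx7, Kat2a/Kat2b and Smarcc1/Smarcc2 shifted by 1.31, 1.02 and 0.77.

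Ratios that mark the choice of enzyme or assembly shifted by less than their spread. The ATPase ratio Smarca4/Smarca2 shifted by 0.18, Arid1a/Arid1b by -0.12, Ezh2/Ezh1 by -0.49, Ep300/Crebbp by -0.27 and Brd2/Brd3 by -0.30, each less than the SD of the ratio among KPF libraries. A single KPYYF library set the sign of 3 of them. Smarca4/Smarca2 ran from -0.19 (without 4938) to 0.65 (without 4891), Arid1a/Arid1b from -0.48 (without 4449) to 0.18 (without 4938) and Ezh2/Ezh1 from -1.05 (without 4938) to 0.022 (without 4891).

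**Figure D5:**
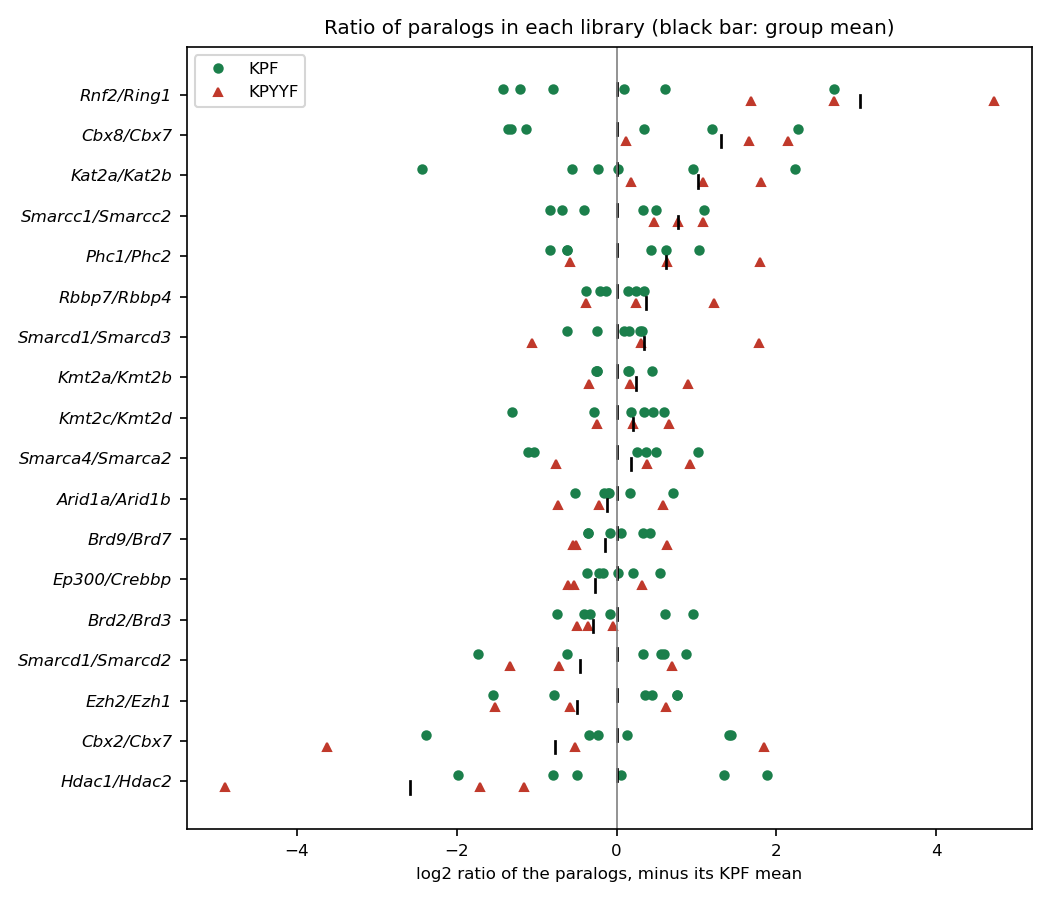
Log2 ratio of the paralogs of each of 18 pairs in each library, minus the mean ratio of the KPF libraries (x axis), with KPF libraries as circles, KPYYF libraries as triangles and group means as black bars. Triangles lie furthest to the right for Rnf2/Ring1 (mean shift 3.04) and furthest to the left for Hdac1/Hdac2 (-2.58), and in 0 of the 18 pairs do all triangles lie on 1 side of all circles.

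The remaining genes of the same complexes were read from a list of 105, of which 97 passed the filter. None had an adjusted p under 0.05 in either direction. At an unadjusted p under 0.05, 5 were higher (5.15%, against 6.10% of all genes tested) and 3 lower (3.09%, against 10.0%), and the 3 lower genes also differed by more than 2-fold (against 9.20% of all genes tested). Chd9, a CHD remodeler, was at 42.5 to 69.1 CPM in KPF and at 29.6, 21.7 and 19.0 CPM in KPYYF, without overlap (log2 fold change -1.19, standard error 0.35, adjusted p = 0.117 in edgeR). Hdac7, a class IIa deacetylase, was at 108 to 224 CPM in KPF and at 18.2, 102 and 44.1 CPM in KPYYF, also without overlap (-1.56, standard error 0.47, adjusted p = 0.127). Scmh1, a PRC1 partner, had -1.06 (standard error 0.47, adjusted p = 0.285) and overlapped. The median size of the log2 fold change over the 97 genes was 0.38, close to the 0.33 of the 53. The classes differed in this. Of the 10 other SWI/SNF subunits tested, 9 lay above 0 (90%, against 46.7% of all genes tested). Their median log2 fold change was 0.54, against -0.11 in the 15 SWI/SNF regulators, and they ran from -1.07 (Bicral) to 0.99 (Dpf2). All 10 overlapped between the groups.

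Motifs of transcription factors were searched on both strands over 250 bases before and 50 after each start, in 56 windows of the 44 regulators with an entry in RefSeq and in all 32851 windows. The E2F motifs TTTCCCGC or TTTGGCGC, the capitals of the Suz12 sequence, were in 5 regulator windows (8.93%), those of Arid1a, Brd7, Ezh2, Smarcd1 and Suz12, and in 1.56% of all windows. The TEAD motif GGAATG, bound by the partners of Yap, was in 6 regulator windows (10.7%) and in 14.7% of all windows, and the E-box CACGTG in 8.93% and 7.15%. Bmi1 carried both. The AP-1 motif TGANTCA was in 5.36% of regulator windows and 7.81% of all windows. Regulator promoters were rich in G and C, with a median of 66% and 29 CpG, against 52.7% and 7 CpG in all windows. The shares were not matched for base composition. Ezh2 and Suz12, both with the E2F motif, had log2 fold changes of -0.45 and 0.55, and Arid1a, Brd7 and Smarcd1 had 0.03, 0.00 and -0.47. A match is a description of the letters, not a site of binding.

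Reads of 3′ libraries can be shared between neighbours. Another gene overlaps 13 of the 53 regulators and reaches within 500 bases of their 3′ end. Among the 13 are Suv39h1 (Gm14820), Rbbp7 (Txlng), Rnf2 (Trmt1l), Setdb1 (Cers2) and Nsd2 (Nelfa). The strand setting of the counting is not given in the sources used here, so the values of the 13 are less certain. None of Hdac2, Smarcc1, Kat2a, Suz12, Bmi1 and Wdr5 has such an overlap. Genes that lie close to a 3′ end without overlapping the regulator were not searched for. In the last 500 bases of their transcripts, 45 of the 53 shared no 50-base word with another gene. The highest share of words found in any other gene was 9.58%, for Bmi1, followed by 8.71% for Rbbp7, and none of the genes that share them had 100 counts or more. Ash2l shared 5.70% of its words with 189 other genes, 137 of them with 100 counts or more, so its level is less certain.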

How the data were processed

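RNA-seq was analysed for PDAC cells of 6 KPF and 3 KPYYF libraries, grouped by the genotype in the labels. As deposited by the authors, each library is a table of raw read counts per Ensembl gene, not normalized. The submitters' processing notes name STAR, HTSeq and mm10, and the labels name the Lexogen QuantSeq forward kit for 3′ ends, while the methods section describes expression BeadChips. Versions and the strand setting are not given in the sources used here. Of all reads in the files, 37.3 to 42.0% were on genes, 43.8 to 53.4% had no unique alignment, 8.63 to 16.0% met no feature and 0.231 to 0.312% were ambiguous. The rows of these last classes were kept out of library sizes and tests.

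Symbols and positions came from GENCODE M21 (GRCm38). Genes with under 100 counts in all were left out, and the other 14105 were tested with edgeR 4.0.16 (quasi-likelihood test, robust, TMM factors 0.832 to 1.08, no covariate) in R 4.3.3, two-sided, with Benjamini-Hochberg adjustment and a threshold of 0.05. The common BCV was 0.825. Standard errors were taken from the F statistic (log2 fold change over root F), and 95% intervals use its degrees of freedom. A prior count of 2 was added for log2 CPM per library, with 0.5 as an alternative for the paralog ratios. Libraries bear separate mouse numbers, except 4504h and 4504s, and p-values measure the spread between these libraries. No pair of libraries agreed within sampling noise.

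The 53 regulators, the list of 105 other complex genes, the 18 pairs, the marker lists and the motifs were chosen with earlier results of these data known. Named in full are genes that pass either call rule and the highest and lowest gene of each complex. Suz12, Bmi1 and the sets of single libraries were named after their values were seen. Beside the lists described in the report, summed levels of fibroblast markers were 416 to 5525 CPM in KPF and 1232 to 3312 CPM in KPYYF, of endothelial markers 18.4 to 86.7 and 12.7 to 43.2 CPM, of islet markers 2.45 to 73.9 and 2.62 to 20.4 CPM, and of Schwann cell markers, of which Sox10 had 0 counts, 86.4 to 253 and 10.3 to 18.0 CPM. Alternatives were the DESeq2 1.42.0 Wald test, limma 3.58.1 voom with quality weights, RLE and upper quartile factors, no filter, filterByExpr, 4504h and 4504s summed, only libraries with over 1000 Xist reads, and each library left out. The omission of the 3 libraries with high acinar or immune markers was chosen after seeing the data. The procedures were tested on simulated counts. Figures were drawn with matplotlib 3.10.9. An allele that both groups carry is not reported here.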

Additional observations from a re-analysis of the deposited data

Results flagged for a closer look

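Among the 6 KPF libraries, a library lay far from the others for 3 of the 53 regulators, by Dixon's ratio of the gap to the range. Chance alone marks about 1 in 20 groups, and 53 were looked at. Smarcd1 was at 12.2 CPM in KPF library 4601 and at 18.1 to 20.8 CPM in the other 5. Kdm1a was at 14.4 CPM in the same library and at 35.0 to 54.9 CPM in the others. That library held the highest summed immune markers, and their part in these values was not tested. Suv39h1 was at 64.3 CPM in KPF library 4435 and at 24.6 to 33.6 CPM in the others, and without that library its log2 fold change was 1.40.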

How the results depend on the processing

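None of the 53 regulators reached an adjusted p under 0.05 in any of the 18 alternatives run, and the smallest over them were 0.0584 for Hdac2, 0.0748 for Suv39h1, 0.0856 for Smarcc1 and 0.111 for Kat2a. With a library left out, the number past an unadjusted p under 0.05 and 2-fold ranged from 1 (without KPYYF 4938) to 4 (without KPF 4515 or KPYYF 4449) for higher genes, and from 0 to 1 (without KPYYF 4891) for lower genes. At an unadjusted p under 0.05 alone, it was 3 to 9 for higher genes and 0 to 1 for lower genes. The number of higher genes was 5 when 4504h and 4504s were summed and 2 among libraries with over 1000 Xist reads. Shares of all genes at these unadjusted thresholds were not computed for each setting, so these counts are not read as results about the regulators. At an adjusted p under 0.05 in edgeR, 0.163% (without KPYYF 4891) to 1.91% (without KPYYF 4449) of all genes were called with a library left out. It was 0.319% among libraries with over 1000 Xist reads. Genes without overlap ranged from 7 to 11 (higher) and 0 to 2 (lower) with a library left out, were 13 and 4 without the 3 libraries high in acinar or immune markers, and among libraries with over 1000 Xist reads were 9 higher (17%, against 8.03% of all genes) and 3 lower (5.66%, against 10.9%). Fewer libraries leave more genes without overlap by construction. The median log2 fold change, 0.02, stayed between -0.02 and 0.11 with a library left out. Brd2, at -0.04, changed sign to 0.12 (over 1000 Xist reads), to 0.068 (without the 3 libraries) and, with a library left out, ran from -0.17 to 0.13. Kdm5b was -0.075 without the 3 libraries. The cause was not tested. With a library left out, shifts of Arid1a/Arid1b (-0.48 to 0.18), Smarca4/Smarca2 (-0.19 to 0.65), Ezh2/Ezh1 (-1.05 to 0.022), Kmt2c/Kmt2d (-0.051 to 0.43), Smarcd1/Smarcd3 (-0.37 to 1.04), Rbbp7/Rbbp4 (-0.065 to 0.74), Cbx2/Cbx7 (-2.07 to 0.66), Kmt2a/Kmt2b (-0.088 to 0.53) and Brd9/Brd7 (-0.52 to 0.06) also crossed 0. No paired analysis was possible because replicate numbers were given in accession order and each library is from its own mouse, except 4504h and 4504s of the same group. With 3 KPYYF libraries, changes under 2-fold were below what most intervals resolve.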
